A study of Mus musculus with 4 samples.

Results

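B cells were taken as the barcodes with at least 500 detected genes, at most 20% of UMIs (unique molecular identifiers, 1 per captured transcript) from mitochondrial genes, at least 2 Cd79a UMIs, at least 1 Cd79b UMI, fewer than 20 Jchain UMIs, no Cd3e UMI and under 10% of UMIs from the 7 islet hormone genes. Cd79a and Cd79b encode the signalling pair of the B cell receptor, Jchain the joining chain made by plasma cells, and Cd3e a T cell receptor subunit. The rule found 1210 B cells among 16146 cells past the filter on genes and mitochondrial UMIs, out of 19987 barcodes. Because measured counts chose the members, every value that follows is a description and carries no test.

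The study profiled single cells from pancreatic islets of 5-week-old NOD mice, a strain that develops autoimmune diabetes after lymphocytes enter its islets. The groups were Xbp1{beta}-/- and Xbp1fl/fl islets, with 2 samples each, and both groups are labelled with tamoxifen injection, which switches on an inducible Cre that cuts out floxed Xbp1. The labels do not name the promoter that drives Cre, or say whether the Xbp1fl/fl mice carried it. Islets were picked by hand after collagenase digestion, cultured overnight and dispersed with accutase, so each library holds the immune cells that stayed with the islets through these steps. The deposited matrix pools 4 libraries, told apart by the number at the end of each barcode, and neither the barcodes nor the labels link a number to a sample. The genotypes are therefore not compared, and each library is given on its own; where libraries differ, genotype and library preparation cannot be told apart.

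A mature B cell carries 1 rearranged heavy chain and 1 rearranged light chain, kappa or lambda, paired with Cd79a and Cd79b at the surface. It takes up antigen through this receptor, cuts it and shows the peptides on MHC class II to helper T cells, and on activation it can switch its heavy chain, enter a germinal centre or become a plasma cell that secretes antibody. In NOD mice B cells are known chiefly as cells that present islet antigen to T cells.

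Class II genes share a promoter element, the Y box, and genes that answer interferon share another, the interferon response element. Promoters of both kinds are printed here: the first 4 belong to class II genes that the naming rule picked against T or plasma cells, and the last 2 to interferon-stimulated genes that had UMIs in the B cells of libraries 1 and 3 and none in those of library 2. Each runs from 250 bases before the gene's start to 50 bases after it, 5′ to 3′ on the gene's strand, from RefSeq on build GRCm38.p6, and so shows the reference strain rather than NOD. Capitals mark each match to TGATTGG (Y box core) in the class II promoters and to GAAA, NN, GAAA (interferon response element, N being any base) in the other 2; both were searched on both strands, and matches that overlap, as in Isg15, form 1 run of capitals. The coordinates are chr17:34287774-34288073, minus strand, for H2-Aa, chr17:34305617-34305916, plus strand, for H2-Eb1, chr17:34144999-34145298, plus strand, for H2-DMb2, and chr17:34238655-34238954, plus strand, for H2-Ob. Isg15 lies at chr4:156200769-156201068, minus strand, and Ifit3 at chr19:34583279-34583578, plus strand.
H2-Aa: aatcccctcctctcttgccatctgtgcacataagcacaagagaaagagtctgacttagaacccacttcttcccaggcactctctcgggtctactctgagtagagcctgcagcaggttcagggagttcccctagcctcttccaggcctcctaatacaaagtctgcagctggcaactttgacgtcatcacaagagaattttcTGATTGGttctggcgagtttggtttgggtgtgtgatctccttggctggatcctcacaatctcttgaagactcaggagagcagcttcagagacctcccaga
H2-Eb1: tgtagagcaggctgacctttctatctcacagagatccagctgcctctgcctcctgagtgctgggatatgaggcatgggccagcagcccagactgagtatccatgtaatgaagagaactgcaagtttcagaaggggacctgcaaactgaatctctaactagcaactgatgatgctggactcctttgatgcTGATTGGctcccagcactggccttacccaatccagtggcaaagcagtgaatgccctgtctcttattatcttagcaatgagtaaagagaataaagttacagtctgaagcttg
H2-DMb2: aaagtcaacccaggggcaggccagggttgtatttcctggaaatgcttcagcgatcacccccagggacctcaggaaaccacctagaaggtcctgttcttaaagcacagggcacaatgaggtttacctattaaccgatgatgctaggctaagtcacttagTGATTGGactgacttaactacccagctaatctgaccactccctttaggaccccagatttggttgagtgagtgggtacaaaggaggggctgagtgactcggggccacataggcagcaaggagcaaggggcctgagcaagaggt
H2-Ob: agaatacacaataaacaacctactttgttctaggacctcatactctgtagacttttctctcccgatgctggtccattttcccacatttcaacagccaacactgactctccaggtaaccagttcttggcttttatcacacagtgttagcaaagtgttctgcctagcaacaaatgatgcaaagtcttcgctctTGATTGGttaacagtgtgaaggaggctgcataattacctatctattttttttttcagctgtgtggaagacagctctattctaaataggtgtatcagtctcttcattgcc
Isg15: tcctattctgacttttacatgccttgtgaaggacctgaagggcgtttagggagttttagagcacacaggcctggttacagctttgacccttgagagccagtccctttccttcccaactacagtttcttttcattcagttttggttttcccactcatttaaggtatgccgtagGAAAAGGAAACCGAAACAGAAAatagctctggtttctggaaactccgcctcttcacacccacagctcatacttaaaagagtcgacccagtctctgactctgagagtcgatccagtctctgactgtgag
Ifit3: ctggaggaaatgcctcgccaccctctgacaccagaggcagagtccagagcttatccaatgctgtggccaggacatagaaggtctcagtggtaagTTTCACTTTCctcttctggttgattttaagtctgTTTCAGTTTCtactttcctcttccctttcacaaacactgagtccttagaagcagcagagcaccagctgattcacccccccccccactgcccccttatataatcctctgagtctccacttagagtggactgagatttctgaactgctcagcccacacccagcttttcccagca
The Y box match began 50 bases before the start of H2-Aa, 61 before H2-Eb1, 92 before H2-DMb2 and 59 before H2-Ob. Of the 10 class II list genes with a promoter in the table, 7 held a match, against 2431 of all 27025 genes in the table (9.0%). The Isg15 promoter held 3 overlapping interferon response elements that began 78, 72 and 66 bases before the start, and that of Ifit3 a pair at 156 and 122 bases, where the capitals show the other strand. Among the interferon list, 12 of 20 genes with a promoter held this motif, against 1079 of all genes in the table (3.99%). A match is a run of letters and does not show that a factor binds there.

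The share of B cells differed by far more than counting error between libraries. B cells made up 673 of 3635 cells in library 1 (18.5%, exact 95% binomial interval 17.3 to 19.8%), 28 of 5268 in library 2 (0.532%, 0.353 to 0.767%), 508 of 3455 in library 3 (14.7%, 13.5 to 15.9%) and 1 of 3788 in library 4 (0.0264%, 0.000668 to 0.147%). These intervals cover counting error only. Libraries 1 and 3 thus held 1181 of the 1210 B cells. Beta cells (at least 20% of UMIs from Ins1 and Ins2 and no Ptprc UMI) made up 11.4, 63.3, 16.7 and 60.6% of libraries 1 to 4, so the libraries with many B cells were those with few beta cells. The number of islets behind each library was not used here, and its part in these shares was not tested.

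**Figure D1:**
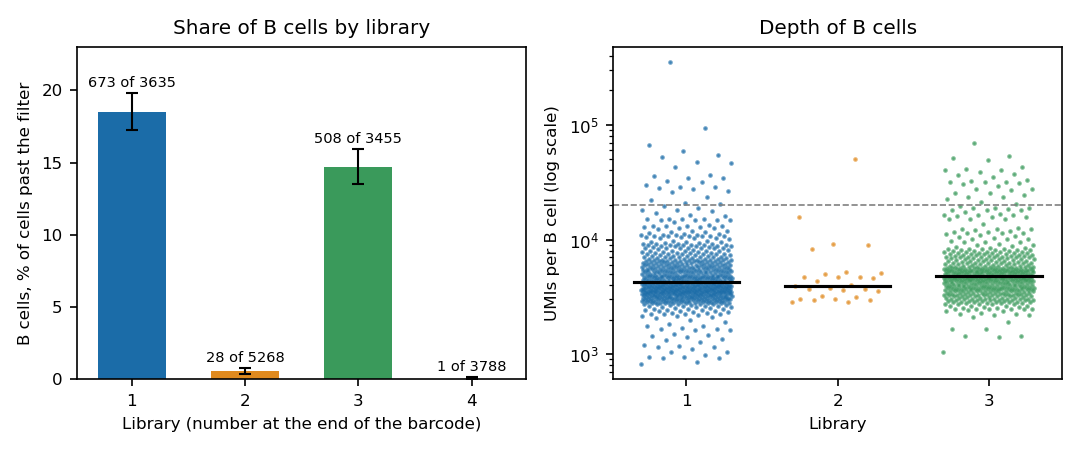
Left, B cells as a percentage of the cells past the filter in each of the 4 libraries, with exact 95% binomial intervals and cell numbers. Right, UMIs per B cell on a log scale in libraries 1 to 3, with the median as a black bar and a dashed line at 20000 UMIs; the medians lie between 3962 and 4775.5 UMIs and a thin upper tail crosses the line.

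The libraries held 82963911, 178396311, 85266513 and 110800927 UMIs in all, numbered 1 to 4. B cells held few UMIs: their median was 4223 UMIs and 1598 genes in library 1, 3962 UMIs and 1459.5 genes in library 2, and 4775.5 UMIs and 1758 genes in library 3. Above 20000 UMIs stood 26, 1 and 31 B cells in libraries 1, 2 and 3, which together held 28.3, 27.7 and 28.6% of the B cell UMIs. A single library 1 member had 352074 UMIs, 7.64% of its class, of which 19.5% came from acinar genes, and it held 57676 of the 70093 Ctrb1 UMIs of that class beside 22 Cd79a and 13 Ms4a1 UMIs. At least 2 UMIs of Lyz2, Cd3d, Cd3g, Fscn1, Col3a1, Pecam1 or Krt19, markers of other cell types, were found in 116 B cells of library 1 (17.2%), 4 of library 2 (14.3%) and 72 of library 3 (14.2%), and Pecam1, which B cells also carry at low level, gave 92, 3 and 58 of these. No doublet caller was run. The 16 bases of 90 barcode entries occurred in more than 1 library, 6 of these entries were B cells, and no pair of them was 2 B cells.

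The label was checked against markers that the rule did not use. Ms4a1, which encodes CD20, was detected in 92.7% of B cells, and Bank1, a B cell adaptor, in 87.6%; 98.3% held 1 or both. In endothelial cells, which should lack it, Ms4a1 was detected in 0.449%, at a median of 10193 UMIs a cell against 4531 in B cells. Just inside the threshold, 13 members had exactly 2 Cd79a UMIs, and 92.3% of them held Ms4a1 and 69.2% Bank1. Just outside, 8 cells met the other conditions with 1 Cd79a UMI, and 12.5% of them held Ms4a1 and 4 held 1 or both of Ms4a1 and Bank1. Ms4a1 stood at 974, 364 and 686 CPM in B cells of libraries 1, 2 and 3, where CPM is a gene's UMIs in a class of 1 library, scaled to the usual counts-per-million total of that class. The markers fit the label in every library with more than 1 B cell.

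B cells were set against 3 other immune classes within each library: T cells (Cd3e and Cd3d or Cd3g, no Cd79a), mature dendritic cells (at least 3 UMIs each of Fscn1 and Ccr7) and plasma cells (at least 20 Jchain UMIs and Mzb1). The plasma rule set no limit on Cd79a or Cd79b. Past the filter, 79 cells met every other condition of the B cell rule but had at least 20 Jchain UMIs. Of these, 60.8% held Ms4a1 or Bank1. How many of the 93 plasma cells were among them was not counted, so the plasma class may hold cells that still carry B cell transcripts. A gene was called higher or lower when its log2 ratio of CPM + 10 passed 2-fold the same way in each library that held at least 20 cells of both classes, and genes with at least 10 UMIs in either class there are called tested, although no statistical test was made. The added 10 CPM understates the ratio of low genes. Libraries 1, 2 and 3 entered against 169, 52 and 134 T cells and against 163, 20 and 186 mature dendritic cells, and libraries 1 and 3 against 67 and 23 plasma cells. Against T cells 132 of 5544 genes were higher (2.38%) and 297 lower (5.36%). Against mature dendritic cells 460 of 3399 were higher (13.5%) and 574 lower (16.9%), and against plasma cells 970 of 10364 were higher (9.36%) and 284 lower (2.74%). All classes were drawn from the same libraries by their own marker genes, so counts of list members are read against these shares of all genes and support no claim of enrichment. Without library 2, whose 28 B cells limit which genes could be tested, 255 of 10650 genes were higher (2.39%) and 513 lower (4.82%) against T cells, and 841 of 10895 higher (7.72%) and 951 lower (8.73%) against mature dendritic cells.

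**Figure D2:**
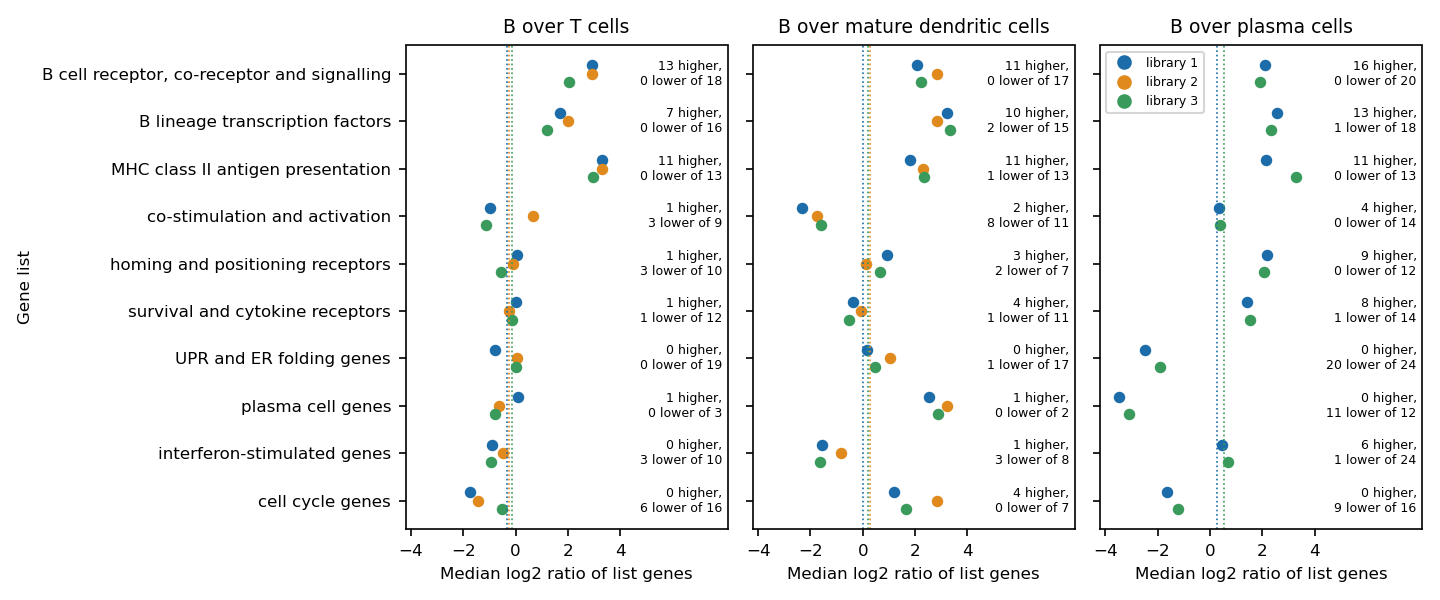
Median log2 ratio of B cells over T, mature dendritic and plasma cells for the tested genes of 10 lists, 1 point per library, with the numbers called higher and lower at the right; dotted lines mark the median of all tested genes in each library. Receptor, transcription factor and class II lists lie right of the dotted lines in all 3 panels, and the folding and plasma cell lists lie far left of them against plasma cells only.

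Most tested genes of the B cell receptor and its proximal kinases were higher in B cells than in T cells. Of 18 tested genes of receptor, co-receptor and signalling, 13 were higher and none was lower, with list medians of 2.91, 2.93 and 2.03 in libraries 1, 2 and 3 against −0.31, −0.24 and −0.13 over all tested genes. Cd22, an inhibitory co-receptor that binds sialic acid, had 124, 71.8 and 105 CPM in B cells against 1.12, 0 and 0 CPM in T cells. Cd72, another inhibitory co-receptor, had 216, 259 and 258 CPM in B cells and 3.37, 0 and 13.5 CPM in T cells. Both genes were called higher in B cells, and in T cells of library 2 their count of 0 allows up to 6.75 CPM. Among the kinases, Lyn, which starts receptor signalling, stood at 267, 144 and 258 CPM in B cells and 10.7, 2.25 and 28.0 CPM in T cells. Syk, which binds the phosphorylated Cd79 pair, had 269.9, 105 and 229 CPM in B cells and 15.2, 6.75 and 46.4 CPM in T cells. Btk, which activates phospholipase C, had 135, 116 and 172 CPM in B cells and 8.43, 0 and 7.73 CPM in T cells, and the adaptor Blnk 220.2, 171 and 239 CPM in B cells and 2.25, 0 and 7.73 CPM in T cells. Each was higher in B cells of all 3 libraries. Bcl10 and Malt1, which connect antigen receptors to NF-kappaB in both lineages, were not called. Bcl10 had 99.9, 82.8 and 119 CPM in B cells and 95.6, 87.8 and 102 CPM in T cells. Malt1 had 213, 116 and 201 CPM in B cells and 166, 284 and 297 CPM in T cells, a difference beyond 2-fold in library 2 only, where it was lower in B cells on 21 UMIs. Against mature dendritic cells 11 of 17 genes of the list were higher, and against plasma cells 16 of 20, again with none lower. Fcgr2b, the inhibitory Fc receptor that binds IgG complexes, stood at 98.8, 88.3 and 87.8 CPM in B cells, against 8.15, 0 and 0.392 CPM in mature dendritic cells.

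Transcription factors of the B lineage followed. Pax5, which keeps B cell identity, had 223, 93.8 and 212 CPM in B cells of libraries 1, 2 and 3, against 0.562, 0 and 0 CPM in T cells and 5.75 and 0 CPM in plasma cells of libraries 1 and 3. Ebf1, which specifies the lineage, had 911, 872 and 953 CPM in B cells, against 16.9, 0 and 0 CPM in T cells and 28.8 and 39.2 CPM in plasma cells. Both were thus high in B cells and near 0 or low in each other class. Mef2c behaved differently against plasma cells, with 827, 784 and 817 CPM in B cells and 454 and 446 CPM in plasma cells, within 2-fold, though T cells had only 11.8, 0 and 9.67 CPM. Foxp1, a factor of resting B cells, stood at 590.1, 364 and 651 CPM in B cells and 118, 117 and 204 CPM in T cells, and Bcl11a at 190.4, 60.7 and 138 CPM in B cells and 1.12, 0 and 13.5 CPM in T cells. In all, 7 of 16 tested factors were higher than in T cells and none was lower, and 13 of 18 were higher than in plasma cells. Pou2af1, a co-activator of octamer factors that is needed for germinal centres, was the 1 factor lower than in plasma cells, at 90.5 and 95.1 CPM in B cells of libraries 1 and 3, against 302 and 293 CPM in plasma cells. Against mature dendritic cells 10 of 15 were higher and 2 lower: Spi1, the PU.1 factor, at 74.9, 93.8 and 74.2 CPM in B cells and 268, 280.4 and 318 CPM in mature dendritic cells, and Rel, an NF-kappaB subunit, at 232, 270.5 and 399.8 CPM in B cells and 837, 1132 and 1025 CPM in mature dendritic cells.

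**Figure D3:**
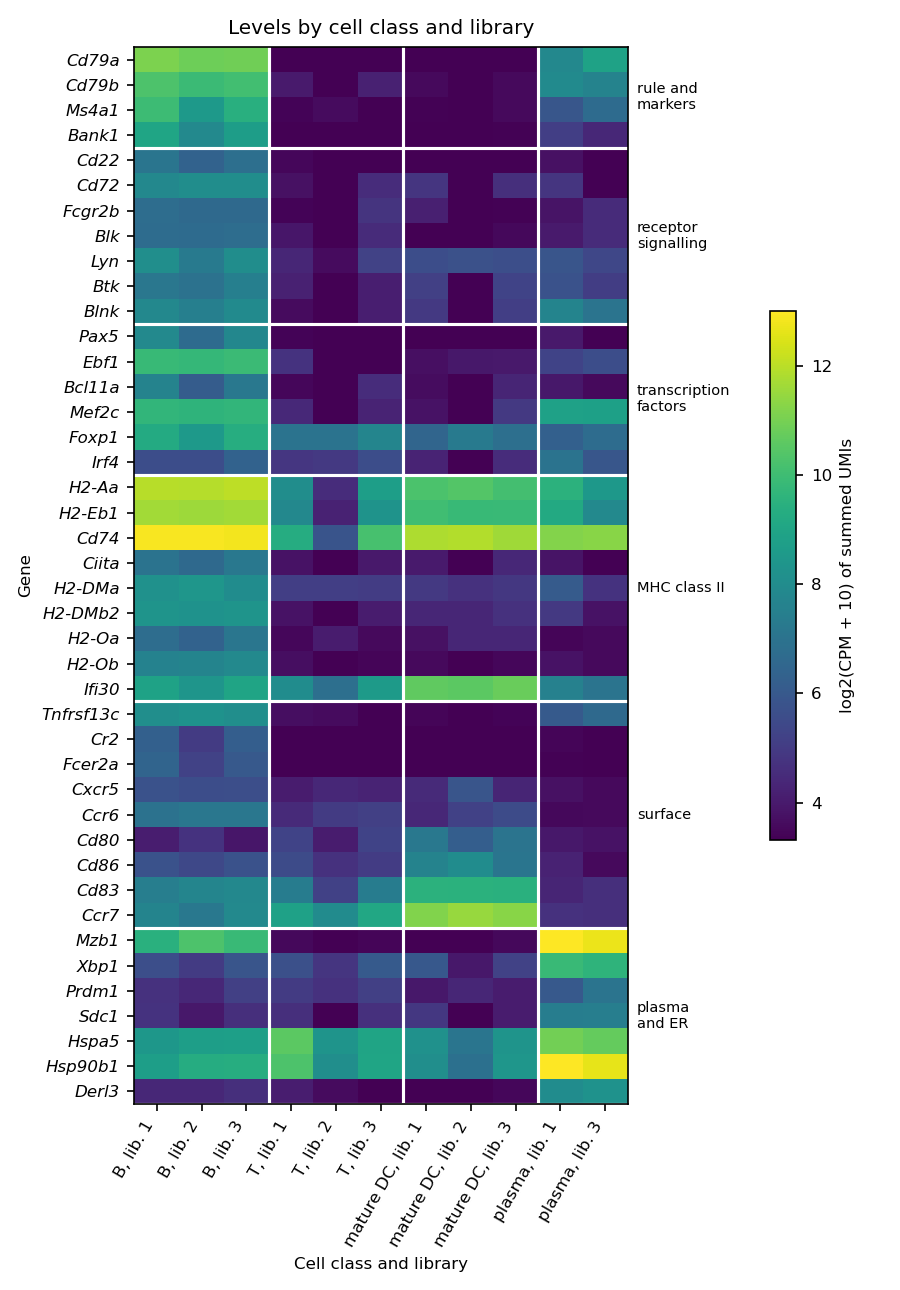
Levels of 42 genes as log2(CPM + 10) of summed UMIs in B cells, T cells, mature dendritic cells (DC) and plasma cells, 1 column per library, grouped by role; colours run from dark (low) to yellow (high) and are compared along a row only, since CPM is not corrected for transcript length. The class II block, Ifi30 apart, is brighter in the 3 B cell columns than in the other classes.

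Most MHC class II genes were higher in B cells than in each immune class compared. Of 13 list genes, all tested, 11 were higher than in T cells, 11 higher and 1 lower than in mature dendritic cells, and 11 higher than in plasma cells. H2-Aa, which encodes the alpha chain of I-A, had 3959, 3842 and 4138 CPM in B cells of libraries 1, 2 and 3 (exact 95% Poisson intervals 3902 to 4017, 3562 to 4138 and 4072 to 4204, counting error only), against 1219.6, 1348 and 1083 CPM in mature dendritic cells and 256, 13.5 and 421 CPM in T cells. H2-Eb1, an I-E beta chain gene, had 3238, 3091 and 3245 CPM in B cells, against 1031, 911 and 945 CPM in mature dendritic cells. Cd74, the invariant chain that guides class II molecules to endosomes, had 7658, 7717 and 7319 CPM in B cells, against 3587, 3775 and 3118 CPM in mature dendritic cells. B cells thus exceeded mature dendritic cells in each library, with log2 ratios for H2-Eb1 of 1.64, 1.75 and 1.77.

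Regulators and editors of class II loading were higher as well. Ciita, the co-activator that switches on class II promoters, had 118, 88.3 and 139 CPM in B cells, against 6.43, 0 and 11.0 CPM in mature dendritic cells, 3.94, 0 and 5.80 CPM in T cells and 4.31 and 0 CPM in plasma cells of libraries 1 and 3. H2-Oa and H2-Ob form the DO dimer, which holds back the peptide editor DM. H2-Ob had 186, 199 and 225 CPM in B cells, against 1.72, 0 and 1.18 CPM in mature dendritic cells and 3.83 and 1.87 CPM in plasma cells. H2-DMb2, a beta chain of DM, had 312, 293 and 309 CPM in B cells and 10.7, 10.8 and 16.1 CPM in mature dendritic cells; H2-DMb1 and H2-DMb2 are close copies, and reads may have been split between them. The gene that ran the other way was Ifi30, a thiol reductase that opens disulfide bonds of antigens in endosomes, at 472, 320.2 and 491 CPM in B cells and 1597, 1488 and 1748 CPM in mature dendritic cells. Ctss, a protease that trims the invariant chain, passed 2-fold in no comparison that used every library, at 356, 282 and 391 CPM in B cells and 798, 577 and 789 CPM in mature dendritic cells. T cells of library 2 held far fewer class II UMIs than those of libraries 1 and 3 (H2-Aa 256, 13.5 and 421 CPM), so the ratio over T cells was widest there.

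Most co-stimulation and activation genes were lower in B cells than in mature dendritic cells. Of 11 tested genes 8 were lower than in mature dendritic cells and 2 were higher, with list medians of −2.32, −1.75 and −1.61 against 0.02, 0.26 and 0.20 over all tested genes. Cd80, a ligand of CD28, had 6.95, 16.6 and 5.16 CPM in B cells, of which library 2 rests on 3 UMIs, against 138, 64.7 and 123 CPM in mature dendritic cells. Cd86, the other CD28 ligand, had 44.5, 33.1 and 43.8 CPM in B cells and 189.5, 248 and 125 CPM in mature dendritic cells. Cd40, the receptor through which helper T cells activate both cell types, had 39.9, 60.7 and 54.1 CPM in B cells and 240.1, 216 and 133 CPM in mature dendritic cells. All 3 genes were lower in B cells of each library. Against T cells 1 of 9 was higher and 3 were lower, and against plasma cells 4 of 14 (Cd40, Cd86, Icosl and Cd83) were higher and none was lower. The 2 genes that were higher than in mature dendritic cells were Cd24a, a surface glycoprotein, and Cd69, an early activation marker, with Cd69 at 109, 309 and 260.4 CPM in B cells and 7.29, 0 and 2.74 CPM in mature dendritic cells. Il2ra, the interleukin 2 receptor alpha chain, was at 4.13, 5.52 and 10.9 CPM in B cells, against 135, 85.5 and 168 CPM in T cells and 139.8, 108 and 127 CPM in mature dendritic cells.

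Homing receptors of recirculating B cells were detected in every library with more than 1 B cell. S1pr1, which guides lymphocytes out of tissue, had 336, 270.5 and 364 CPM in B cells, against 12.5 and 7.47 CPM in plasma cells of libraries 1 and 3 and 12.4, 37.7 and 11.4 CPM in mature dendritic cells. Ccr6, the receptor of Ccl20, had 116, 132 and 132 CPM in B cells, against 12.4, 22.5 and 26.1 CPM in T cells and 11.1, 27.0 and 36.8 CPM in mature dendritic cells. Cxcr5, which leads B cells into follicles, was at 44.5, 38.6 and 39.7 CPM in B cells and 6.75, 11.3 and 9.67 CPM in T cells. It was higher than in plasma cells, and had under 10 UMIs in a library against T and dendritic cells, so it was not called there in either direction. Against plasma cells 9 of 12 tested homing genes were higher and none was lower, and against T cells 1 was higher and 3 lower of 10. The 3 lower ones were Cxcr3, a receptor of interferon-induced chemokines, and the integrin chains Itgb7 and Itga4; Itga4 had 144, 66.2 and 136 CPM in B cells and 339.6, 421 and 323 CPM in T cells. Ccr7, which leads cells to lymph nodes and is part of the dendritic rule, had 195, 138 and 223 CPM in B cells and 2268, 2934 and 2457 CPM in mature dendritic cells.

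Among survival receptors, Tnfrsf13c, which encodes the BAFF receptor that mature B cells need to live, had 265, 293 and 263 CPM in B cells, against 2.81, 2.25 and 0 CPM in T cells, 0.858, 0 and 0.784 CPM in mature dendritic cells and 56.1 and 89.6 CPM in plasma cells. Tnfrsf13b, which encodes TACI, had 144, 121 and 155 CPM in B cells and 130.4 and 123 CPM in plasma cells, within 2-fold. Tnfrsf17, which encodes the plasma cell receptor BCMA, had no UMI in B cells of libraries 1, 2 and 3, against 36.9 and 31.7 CPM in plasma cells of libraries 1 and 3. The 3 receptors of this family were thus divided between the classes, 1 higher in B cells, 1 shared and 1 with UMIs in plasma cells alone. Ifngr1, an interferon gamma receptor chain, was the survival and cytokine receptor gene lower than in T cells, at 78.2, 66.2 and 72.0 CPM in B cells and 460.4, 407 and 548 CPM in T cells. Of the Toll-like receptor list, Ly86 and Unc93b1, partners of Cd180 and of the endosomal receptors, were higher than in T and mature dendritic cells; Unc93b1 had 375, 359 and 391 CPM in B cells and 31.5, 9.01 and 48.3 CPM in T cells. Tlr7 had 12.6, 5.52 and 16.9 CPM and Tlr9 2.39, 5.52 and 0.815 CPM in B cells.

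Among cytokines and ligands, Ltb, which helps to build lymphoid tissue, was higher in B cells than in mature dendritic cells, at 294, 419.5 and 228 CPM in B cells and 24.9, 5.39 and 12.9 CPM in mature dendritic cells, while T cells had 516, 621 and 509 CPM. Tgfb1, a cytokine that restrains lymphocytes, was also higher than in mature dendritic cells, at 98.6, 149 and 123 CPM in B cells and 28.3, 59.3 and 39.6 CPM in mature dendritic cells. Il10, the cytokine of regulatory B cells, had 2.61, 0 and 8.70 CPM in B cells, and Tnf 1.74, 0 and 1.90 CPM in B cells. Few UMIs of effector cytokines were thus found. Of 6 list genes tested against T cells 3 were lower, Tnfsf8, Ccl22 and Cxcl10, and none was higher.

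Of the genes of naive follicular B cells, Ighd was detected in most members and Fcer2a and Cr2 in a minority. Genes of germinal centre or precursor cells were detected in few or none. Ighd, the IgD heavy chain carried by naive cells, had 354, 298 and 334 CPM in B cells, and a UMI in 76.5 and 80.1% of B cells of libraries 1 and 3. Fcer2a, the low-affinity IgE receptor CD23 of follicular B cells, had 76.0, 27.6 and 54.6 CPM, and Cr2, the complement receptor CD21, 68.0, 22.1 and 63.6 CPM. In libraries 1 and 3 a UMI of Fcer2a was found in 28.4 and 24.8% of B cells, and 1 of Cr2 in 27.6 and 26.6%. Both genes were at 0 in every T and mature dendritic library. Vpreb3, a chaperone-like protein of the receptor kept in mature mouse B cells at low level, had 191, 121 and 186 CPM in B cells and 31.6 and 54.1 CPM in plasma cells. Cd93, a marker of transitional cells, had 5.86, 0 and 12.0 CPM. Of the precursor genes, Rag2, Dntt and Igll1 had no UMI in libraries 1, 2 and 3 and Rag1 and Vpreb1 had 1 UMI each. Among germinal centre genes, Bcl6, the repressor that directs the germinal centre programme, had 18.7, 22.1 and 14.4 CPM and a UMI in 10.4 and 8.86% of B cells of libraries 1 and 3, and Nuggc had none. Cd5 and Spn, used to mark B-1 cells but shared with T cells, had 5.64, 16.6 and 2.17 CPM and 6.73, 5.52 and 5.16 CPM in B cells, against 119.8, 171 and 109 CPM and 52.8, 151 and 65.7 CPM in T cells. Of 8 tested memory list genes 3 (Hhex, Zeb2 and Fcrl5) were higher than in plasma cells, where 9.36% of all genes were higher. Against T cells 1 of 5 was higher (Hhex) and 2 were lower (Cxcr3 and Nt5e). Against mature dendritic cells 1 of 3 was higher (Hhex) and 2 were lower (Cd80 and Pdcd1lg2). Fcrl5, an Fc receptor-like protein, was found in 13.4 and 17.5% of B cells of libraries 1 and 3, at 32.8 and 48.1 CPM.

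The genes of secretion separated B cells from plasma cells. Of 24 unfolded protein response (UPR) and folding genes 20 were lower in B cells and none was higher, with list medians of −2.49 and −1.92 in libraries 1 and 3 against 0.27 and 0.55 over all tested genes. Xbp1, the UPR transcription factor that plasma cells need to secrete, had 39.9, 22.1 and 48.7 CPM in B cells of libraries 1, 2 and 3, against 926 and 777 CPM in plasma cells of libraries 1 and 3. T cells had 41.6, 18.0 and 56.1 CPM, so the ranges of B and T cells overlapped. The genotype label Xbp1{beta}-/- names this gene, and its {beta} mark points to beta cells. Loss of Xbp1 in immune cells was not tested. Hspa5, the main chaperone of the endoplasmic reticulum, had 340.2 and 433 CPM in B cells of libraries 1 and 3, against 1938 and 1689 CPM in plasma cells, and Hsp90b1 422 and 642 CPM in B cells against 8754 and 6397 CPM in plasma cells. Derl3, which serves degradation of misfolded proteins, had 10.9 and 14.4 CPM in B cells and 253 and 299 CPM in plasma cells. Prdm1, the factor that ends the B cell programme, had 16.1 and 25.3 CPM in B cells and 55.6 and 121 CPM in plasma cells. In all, 11 of 12 plasma cell genes were lower, among them Jchain and Mzb1, which the plasma rule used and which therefore count for nothing; Irf4 was the gene that did not pass, at 39.3 and 71.8 CPM in B cells and 120.3 and 50.4 CPM in plasma cells. Mzb1, a folding helper of marginal zone and plasma cells and part of the plasma rule, was lower than in plasma cells (8547 and 6729 CPM) but had 703, 1242 and 942 CPM in B cells, against 1.69, 0 and 0.967 CPM in T cells.

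Immunoglobulin genes held 21.9 and 39.5% of plasma cell UMIs in libraries 1 and 3, against 1.07, 1.46 and 1.34% of B cell UMIs in libraries 1, 2 and 3, which enters the total behind every plasma cell CPM. With immunoglobulin and hormone genes left out of each total, 578 of 10328 genes were higher (5.60%) and 532 lower (5.15%), and the median over all tested genes became 0.10 and 0.20. The same 24 UPR genes then gave 20 lower and none higher, and the plasma cell list 11 lower of 12. Class II genes gave 9 higher of 13, receptor genes 12 higher and 1 lower of 20, and homing genes 9 higher of 12.

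The naming rule also picked the genes that follow; Il7r, Klf2, Ltb, Fkbp11, Creld2, Edem1 and Eaf2 are also members of the lists. Against T cells the 10 higher genes included Fcrla, an Fc receptor-like protein inside B cells, at 305, 475 and 361 CPM in B cells and 0.562, 0 and 3.87 CPM in T cells, Scd1, a fatty acid desaturase, and Pkig, an inhibitor of protein kinase A. Among the 10 lower genes, Tnfrsf4 (OX40) had 3.04, 0 and 8.43 CPM in B cells and 437, 592 and 609.9 CPM in T cells, and Ikzf2, Il7r, Tnfrsf9, Icos, Ramp1, Skap1, Bcl11b, Sh2d1a and Fyb had log2 ratios between −5.62 and −4.03. In library 2 none of these 10 genes had a UMI in B cells, where a count of 0 allows up to 16.6 CPM. Against mature dendritic cells Cd37, a tetraspanin of B cells, had 762, 673 and 629 CPM in B cells and 17.2, 10.8 and 23.5 CPM in mature dendritic cells, and Rhoh, Ptprcap, BE692007 and Gm8369 were also among the 10 higher. Ccl5, a chemokine, was among the 10 lower genes, at 91.2, 0 and 170.2 CPM in B cells and 10712, 3904 and 7476 CPM in mature dendritic cells. Cst3, a cysteine protease inhibitor, had 607, 602 and 659 CPM in B cells and 18823, 15121 and 15966 CPM in mature dendritic cells; the other 8 were Ramp3, Tbc1d4, Serpinb6b, Bcl2a1a (a gene with close copies), Serpinb9, Gm13546, Bcl2l14 and Fabp5. Against plasma cells Klf2, a factor of quiescent lymphocytes, had 358 and 328 CPM in B cells and 11.0 and 14.9 CPM in plasma cells, and Ltb, which encodes lymphotoxin beta, 294 and 228 CPM in B cells and 8.15 and 5.60 CPM in plasma cells; Btg1, Satb1 and Rflnb were also among the 10 higher. Slpi, a secreted protease inhibitor, had 11.3 and 18.5 CPM in B cells and 2055 and 4827 CPM in plasma cells, and Txndc5, Fkbp11, Creld2, Eaf2, Edem1, Ckap4 and Pon3 were also among the 10 lower.

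The heavy chain of nearly all B cells was IgM or IgD. Ighm (chromosome 12, minus strand, 113418558 to 113422730 on the mm10 assembly as GENCODE M21 annotates it) had 2063, 1452 and 2597 CPM and Ighd (chromosome 12, 113406604 to 113416324) 354, 298 and 334 CPM. Among cells with at least 5 heavy chain UMIs, Ighm and Ighd held at least 80% in 612 of 622 cells in library 1 (98.4%), 20 of 24 in library 2 (83.3%, exact interval 62.6 to 95.3%) and 487 of 494 in library 3 (98.6%). Both genes were detected together in 76.2, 67.9 and 79.9% of B cells. IgG, IgA or IgE transcripts dominated 4, 2 and 3 cells, and in library 2 the 2 cells with the most held 138 such UMIs, 89.6% of that library's B cell total, so the level of Ighg2c there (2.39, 585 and 4.08 CPM in libraries 1, 2 and 3) rested on them. Any UMI of a switched gene was found in 7.58% of B cells of library 1, 7 of 28 cells of library 2 and 9.06% of library 3. Plasma cells were IgM or IgD in 62 of 67 cells of library 1 (92.5%) and 17 of 23 of library 3 (73.9%), and IgG, IgA or IgE in all 3 of library 2.

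Light chains gave a less simple picture. Igkc, on chromosome 6, encodes the kappa constant region, and Iglc1, Iglc2, Iglc3 and Iglc4, on chromosome 16, the lambda ones. Igkc had 6159, 8976 and 7990.1 CPM in B cells and Iglc2 1078, 1733 and 1276 CPM, while Iglc1 had 339, 188 and 334 CPM; Iglc2 and Iglc3 are near-identical copies, so the split between them is uncertain. Among cells with at least 5 light chain UMIs, kappa held at least 80% in 297 of 672 cells of library 1 (44.2%, 40.4 to 48.0%), 7 of 28 of library 2 (exact interval 10.7 to 44.9%) and 220 of 508 of library 3 (43.3%, 38.9 to 47.7%). Lambda held at least 80% in 18 cells (2.68%), 1 cell (3.57%) and 13 cells (2.56%). The remaining 357, 20 and 275 cells (53.1, 71.4 and 54.1%) held both without such a majority. Plasma cells were kappa in 65 of 67 cells of library 1 (97.0%) and 22 of 23 of library 3 (95.7%).

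**Figure D4:**
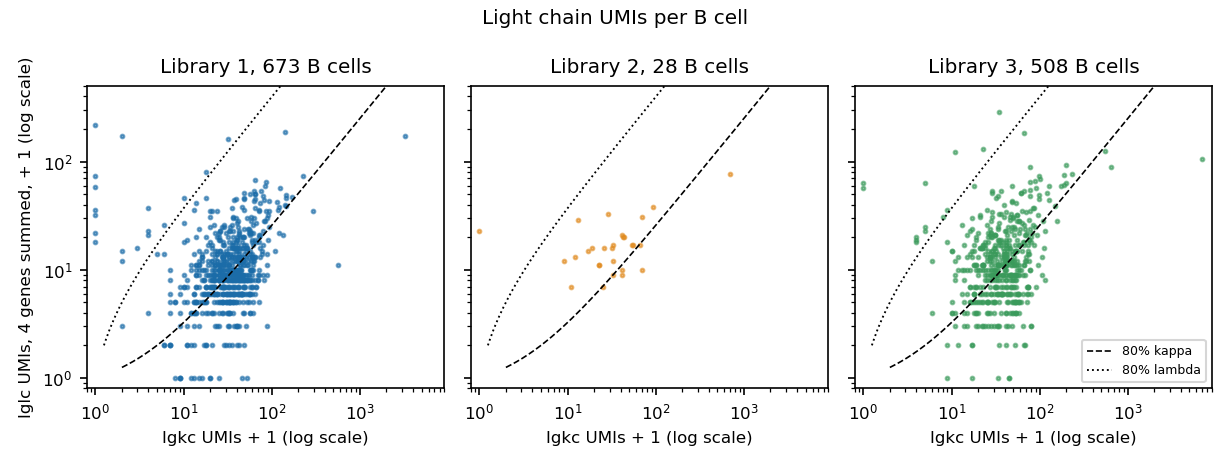
Igkc UMIs and summed UMIs of the 4 Iglc genes per B cell, each plus 1 and on log scales, in libraries 1, 2 and 3. Cells below the dashed line held at least 80% kappa and cells above the dotted line at least 80% lambda; the points run across both lines without a break in libraries 1 and 3, and 18, 1 and 13 cells lie above the dotted one.

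The kappa, mixed and lambda classes are ranges cut from a continuous share and not separate types. Kappa cells had a median of 38 Igkc and 5 Iglc UMIs in library 1 and 45 and 5 in library 3, and mixed cells 27 and 12 in library 1 and 31 and 15 in library 3. Lambda cells had a median of 1 Igkc and 33 Iglc UMIs in library 1 and 4 and 35 in library 3. An Iglc UMI was found in 98.1, 100 and 99.0% of B cells of libraries 1, 2 and 3 at medians of 4223, 3962 and 4775.5 UMIs a cell, against 0.758, 0.990 and 0% of endothelial cells at medians of 10228, 9819 and 11566.5 UMIs. In T cells the share was 0, 0 and 2.99%. Endothelial and T cells thus held few Iglc UMIs, unlike those of Igkc, which 22.7, 2.97 and 18.1% of endothelial cells held. Iglc2 was detected in 95.4, 100 and 96.7% of B cells against 38.9, 32.1 and 38.2% for Iglc1. In lambda cells the leading gene was Iglc1 in 11, Iglc2 in 6 and Iglc3 in 1 of 18 cells of library 1, and Iglc1 in 6 and Iglc2 in 7 of 13 cells of library 3. The source of the few Iglc UMIs in kappa cells was not tested.

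UMIs of variable (V) segments, which differ between clones, were detected in few cells. Reads were counted on mm10 rather than on a NOD genome, and the part of this in the numbers was not tested. At least 2 UMIs of heavy chain V segments were found in 53 B cells of library 1 and 39 of library 3, and 35 and 27 different segments led in them. Kappa V segments gave 57 and 53 cells with 26 and 27 leading segments, and lambda ones 6 and 3 cells with 2 leading segments in each library. Ighv5-17 led in 4 cells of library 1 and Ighv2-2 in 4 cells of library 3, the largest numbers for a heavy segment.

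Interferon-stimulated genes were detected in B cells of libraries 1, 2 and 3, and their sum was lowest in library 2. The 25 list genes summed to 2859, 1386 and 2556 CPM in B cells of libraries 1, 2 and 3. Isg15, a ubiquitin-like protein, had 144, 0 and 88.1 CPM, Ifit1, which binds foreign RNA, 34.5, 0 and 17.1 CPM, and Ifit3, its partner, 80.3, 0 and 50.8 CPM. With 28 B cells in library 2, a count of 0 allows up to 16.6 CPM, and 13 of the 25 genes were at 0 there. Isg15 and Ifit3 lay above this limit in libraries 1 and 3, whereas Ifit1 lay close to it in library 3, where a difference from library 2 was not detectable. Ifi27l2a, an interferon-induced membrane protein, had 559, 55.2 and 714 CPM. The proteasome genes Psmb8 and Psmb9, which lymphocytes also express without interferon, made up most of the library 2 sum, at 512, 552 and 439.5 CPM and 275, 425 and 183 CPM. The same order held in other classes: the list summed to 6477, 1979 and 5343 CPM in T cells and 10271, 3581 and 7070 CPM in mature dendritic cells of libraries 1, 2 and 3, and to 6943, 571, 4477 and 844 CPM in endothelial cells of libraries 1 to 4. The list summed to less in library 2 than in libraries 1 and 3 in each of these classes.

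**Figure D5:**
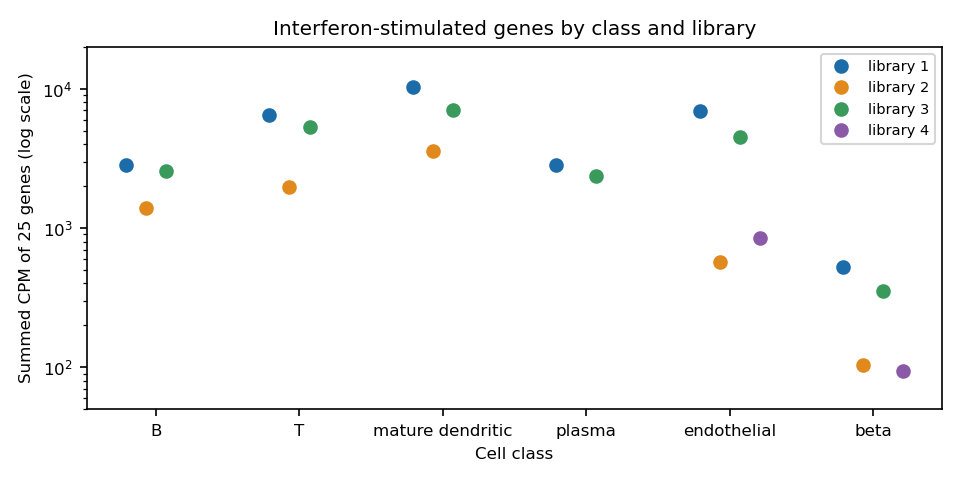
Summed CPM of 25 interferon-stimulated genes on a log scale in 6 cell classes, 1 point per library with at least 20 cells of the class. B cells lie below T, mature dendritic and endothelial cells of libraries 1 and 3, and library 2 lies below libraries 1 and 3 in every class it has.

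Within libraries 1 and 3 these genes summed to less in B cells than in T and mature dendritic cells. In plasma cells they summed to 2836 and 2358 CPM. Immunoglobulin genes held 21.9 and 39.5% of plasma cell UMIs in these libraries, against 1.07 and 1.34% of B cell UMIs. That share lowers the CPM of every other plasma cell gene, so the B and plasma cell sums are not ranked. Of 10 tested list genes 3 were lower than in T cells and none was higher, and of 8 tested 3 were lower and 1 higher than in mature dendritic cells. Without library 2, 24 could be tested. Of these 7 were lower than in T cells, where 513 of 10650 genes were lower (4.82%), and 15 were lower than in mature dendritic cells, where 951 of 10895 genes were lower (8.73%). Bst2, which tethers enveloped viruses, had 212, 66.2 and 196 CPM in B cells, against 692, 87.8 and 601 CPM in T cells and 1351, 129 and 959 CPM in mature dendritic cells. The gene higher than in mature dendritic cells was Ifi203, a DNA-binding protein of the nucleus, at 212, 60.7 and 217 CPM in B cells and 71.2, 0 and 48.2 CPM in mature dendritic cells. Between libraries 1 and 3, 20 of the 25 genes were above 0 on the log2 scale, with a median of 0.19 against −0.09 over all genes. Rsad2, an antiviral enzyme, had 58.6 and 7.61 CPM in libraries 1 and 3, but 11.5 and 5.71 CPM without cells above 20000 UMIs. The share of B cells with an Isg15 UMI, after each cell was thinned to 2000 UMIs, was 6.39% in library 1 and 9.58% in library 3, opposite in order to the CPM, so no order is read from Isg15.

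Between B cells of library 1 and library 3, 79 of 11330 genes were 2-fold higher (0.697%) and 20 lower (0.177%) in library 1. No receptor, transcription factor, class II or homing list gene was among them, and at these shares of all genes nothing is read from that count. The 10 widest ratios above 0 belonged to pancreatic enzyme genes such as Prss3, whose level was 7245 CPM in library 1 against 0.544 CPM in library 3, and 1 cell held 75.6% of its library 1 UMIs; Try4, Gm10334, Ctrb1, Prss1, Gm5771, Try5, Gm2663, 1810009J06Rik and Cela3b were the others, most of them copies of the trypsinogen family. The 10 widest below 0 were those of Ankrd1, Selp, Ccl9, Rgs10, Ccl6, Thbs4, Ccl22, Ahr, Rgs1 and Dtx1. For Selp 1 cell held 99.0% of the library 3 UMIs, and all 59 Thbs4 UMIs there were in 1 cell. Rgs10, a regulator of G protein signalling, was spread over cells: it had 42.6 CPM in library 1 and 147 CPM in library 3 (log2 ratio −1.57), in 71 and 124 cells. Dtx1, a Notch target of marginal zone B cells, had 25.2 CPM in library 1 and 72.6 CPM in library 3, in 90 and 139 cells.

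With B cells above 20000 UMIs left out, 32 of 10181 genes were higher (0.314%) and 13 lower (0.128%) in library 1; this limit and the genes named from it were chosen after their values were seen. Vim, an intermediate filament gene, had 421 CPM in library 1 and 151 CPM in library 3, with a UMI in 60.6 and 34.0% of cells. S100a6, a calcium-binding protein, had 334 CPM in library 1 and 85.3 CPM in library 3, with a UMI in 29.2 and 13.8% of cells. Over all members Vim had a log2 ratio of 1.21 but S100a6 one of 0.04, so the summed S100a6 level differed only without the deepest cells. Thinned to 2000 UMIs with the deepest cells kept in, S100a6 had a mean of 0.517 UMI in library 1 and 0.198 in library 3. No S100a6 UMI was then found in 80.2 and 92.2% of cells. Ctrb1 still had 118 CPM in library 1 and 17.1 CPM in library 3, and the 6 acinar markers summed to 157 and 48.8 CPM; acinar RNA was thus higher in library 1, and its part in the other differences was not tested. Cd69 had 138 CPM in library 1 and 317 CPM in library 3 (log2 ratio −1.14), with a UMI in 30.8 and 53.7% of cells. After thinning to 2000 UMIs over all members, Cd69 was found in 15.6% of 642 cells of library 1 and 34.9% of 501 cells of library 3. Ddit3, the CHOP factor of the stress response, had 42.7 CPM in library 1 and 110 CPM in library 3 (log2 ratio −1.19), with a UMI in 18.1 and 36.5% of cells. Apoe, an apolipoprotein, had 213 CPM in library 1 and 488 CPM in library 3.

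Genes of the UPR and folding list lay slightly lower in library 1. The 1 gene of the list that passed 2-fold was the stress factor Ddit3, with a log2 ratio of −1.10 over all members. Of 24 UPR genes 3 were above and 21 below 0, with a median of −0.32 against −0.09 over all genes, and the median was −0.13 against −0.03 without cells above 20000 UMIs. Immediate early genes, which dissociation can raise, also lay below 0 in 18 of 21, with a median of −0.27, or −0.08 without those cells. Markers of other cell types differed too: over all members the 8 macrophage markers summed to 275 CPM in library 1 and 179 CPM in library 3, the 7 ductal markers to 2253 and 1562 CPM and the 6 endothelial markers to 127 and 163 CPM. Library 2 held 27.6, 132 and 88.3 CPM of the same lists. Hormone genes summed to 2481, 33457 and 3280 CPM in libraries 1, 2 and 3. Their part in these differences was not tested.

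The genes that varied most among B cells of 1 library were only partly B cell genes. After thinning to 2000 UMIs, the variance over the mean across cells had a median of 1.05 in library 1 and 1.07 in library 3 over 2481 genes, where 1 is the value of pure counting noise. Spp1, a secreted protein of macrophages, duct and islet cells, reached 69.3 in library 1 and 68.7 in library 3, with no UMI in 72.0 and 81.6% of cells and up to 141 and 115 UMIs in 1 cell. Clu reached 14.2 and 40.2, Apoe 6.60 and 11.6, and Ins2 4.41 and 10.2. These 4 genes are typical of other islet cells, and the part of free RNA or doublets in them was not tested. Igkc reached 11.2 in library 1 and 79.1 in library 3, where 1 cell held 816 UMIs, and Iglc1 6.98 and 5.53. Plac8, a gene of lymphocytes with high variation between subsets, reached 5.95 and 4.51, Ifi27l2a 3.93 and 4.54, and Egr1, an immediate early gene of receptor signalling, 5.47 and 3.95. Malat1 and Tmsb4x, found in every cell, reached 8.73 and 11.4, and 5.60 and 5.79. S100a6 reached 5.01 and 7.52.

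Few B cells held cell cycle transcripts. At least 3 of 5 cycle genes were detected in 18 B cells of library 1 (2.67%), 1 of library 2 (3.57%) and 17 of library 3 (3.35%), against 14.8, 7.69 and 4.48% of T cells of libraries 1, 2 and 3 and 52.2 and 21.7% of plasma cells of libraries 1 and 3. These B cells had medians of 29020, 50225 and 31963 UMIs, several times those of all B cells, so depth moved with the call, and its part was not tested. Of 16 cell cycle genes 6 were lower than in T cells and none was higher, and 12 were lower when B cells above 20000 UMIs were left out. That setting removed deep cells from the B cells only. T cells above 20000 UMIs stayed in, with 48.0, 37.2 and 47.1% of T cell UMIs in libraries 1, 2 and 3, and deep mature dendritic cells stayed in too. The change in counts is therefore not read as a difference between the classes. Mki67, a marker of dividing cells, had 39.9, 27.6 and 53.3 CPM in B cells and 165, 167 and 67.7 CPM in T cells. Against mature dendritic cells 4 of 7 tested cell cycle genes were higher, while without B cells above 20000 UMIs 2 could be tested and none was higher. Against plasma cells 9 of 16 were lower.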

How the data were processed

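Single-cell UMI counts per gene and barcode were deposited as 1 matrix of 32285 genes and 19987 barcodes. Per the submitters' processing notes the authors used Cell Ranger 6.1.2 and mm10. The matrix pools 4 libraries that no label ties to the 4 samples, so no test between genotypes was possible and no p-value is given. The members and gene lists were chosen with earlier results of these data known.

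Cells were filtered and sorted into classes by the UMI rules in the text (Python 3.11.15, numpy 2.4.6, scipy 1.17.1, pandas 2.3.3, matplotlib 3.10.9). T, mature dendritic and plasma cells had under 10% hormone UMIs, and endothelial cells had at least 2 UMIs each of Pecam1 and Plvap and none of Ptprc. Counts were summed per class and library, scaled to CPM and compared as log2 ratios with 10 CPM added. Named genes were the 10 higher and 10 lower genes whose smallest ratio over the libraries was widest, with at least 50 UMIs in a class, and rule, marker and immunoglobulin constant genes and V segments left out; between libraries 1 and 3 the 10 widest each way; for variation between cells the 12 whose smaller variance over mean of libraries 1 and 3 was largest, at a mean of at least 0.1 UMI; and any member of the gene lists. For shares across depths, each cell was thinned to 2000 UMIs, which left out 31, 0 and 7 B cells. Intervals are exact (95%, Clopper-Pearson or Poisson) and cover counting error only, and a count of 0 is bounded by 3 UMIs. The ratio step was tested on simulated data with known folds.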

Additional observations from a re-analysis of the deposited data

Results flagged for a closer look

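Of the barcodes outside the members, 35 met every other condition of the B cell rule but had 10% or more hormone UMIs, with a median of 34742 UMIs, and 82.9% of them held Ms4a1 or Bank1. A further 16 were left out by a Cd3e UMI, with a median of 9422 UMIs, and 87.5% of them held Ms4a1 or Bank1. Another 11 failed the filter on detected genes or mitochondrial UMIs, and 81.8% of them held Ms4a1. Each of these sets stood out because B cell transcripts appeared in cells that no comparison used. In endothelial cells 0.449% held Ms4a1 and 0.674% held Ms4a1 or Bank1. Cd79a and Cd79b UMIs chose the 3 sets, so B cell transcripts in them are in part a result of the rule.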

How the results depend on the processing

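Each value was recomputed under alternatives to 1 choice at a time, and 277 of 596 stayed within the limits set for the same value, 313 moved and 6 changed sign. The sign changes were in library 1 against 3: without doublet-like B cells the log2 ratios of Selp, Ccl9 and Ccl6 were 0.14, 0.041 and 0.088, and without B cells above 20000 UMIs 0.15, 0.047 and 0.0088, since those cells held their UMIs. Leaving out 1 library at a time gave 144 to 255 genes higher and 351 to 513 lower than in T cells, 487 to 841 and 606 to 951 against mature dendritic cells, and 1242 to 2438 and 381 to 625 against plasma cells. The number of tested genes changed with the libraries. Without library 2 it rose from 5544 to 10650 against T cells and from 3399 to 10895 against mature dendritic cells. The shares were then 2.39% higher and 4.82% lower against T cells (2.38 and 5.36% with it). Against mature dendritic cells they were 7.72 and 8.73% (13.5 and 16.9% with it). Numbers tested in the other settings are not given here. Against plasma cells a pseudocount of 1 CPM gave 2345 higher, and totals without hormone and immunoglobulin genes gave 578 higher and 532 lower. Between libraries 1 and 3, 31 genes were higher without doublet-like cells, 32 higher and 13 lower without cells above 20000 UMIs, and 34 higher and 10 lower from the mean of each cell's CPM. The B cell share became 15.3% in library 1 and 12.6% in library 3 without doublet-like cells, 13.3% in library 3 with an Ms4a1 UMI required, 0.0380% in library 2 and 0 in library 4 with under 2% hormone UMIs, and 0 in library 4 with 1000 genes and 10% mitochondrial UMIs as limits. Lambda cells were 0.792% in library 3 at 90% of at least 10 UMIs. The interferon list summed in B cells to 2966 CPM in library 1 without cells above 20000 UMIs; to 1064, 1123 and 987 CPM in library 2 without doublet-like cells, without cells above 20000 UMIs and from cell means; and to 2399.9, 2722 and 2689.5 CPM in library 3 in the same order. No paired analysis was possible because the libraries carry no sample and no test was made. The 28 B cells of library 2 limit every low gene there, and at a median of 4531 UMIs over all B cells many transcripts go undetected.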
